A study of Mus musculus with 2 samples.

Results

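The nuclear factor I (NFI) genes are a family of 4 transcription factor genes, Nfia, Nfib, Nfic and Nfix. They were followed through a map of POU3F1 occupancy in the embryonic mouse retina by taking every row of the deposited gene table that bears one of the 4 symbols. Nfia and Nfib had a row, with 3 assigned peaks between them, out of 2323 genes and 2652 peaks in the series. Nfic and Nfix had none. The study profiled chromatin of retinal cells from wild-type CD1 mice at embryonic day 14, the only strain, genotype and age in it. CUT&RUN, in which an antibody directs a nuclease to cut the DNA around a chromatin protein, gave 1 library with POU3F1 antibody. Rabbit IgG, without an intended target in these cells, gave 1 more. The chromatin came from whole retina, so the peaks cannot be given to one cell class, and occupancy does not measure expression, so the labelled tissue could not be checked with expressed markers. With 1 library for each antibody there was no replicate spread and no test, and the values below describe this peak list. No signal from the IgG library was used here.

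NFI proteins bind DNA as dimers, through a palindrome made of 2 TTGGC part sites that face each other. In the retina Nfia, Nfib and Nfix are known as factors of late progenitors, where they act in leaving the cell cycle and in the making of bipolar cells and Müller glia. Elsewhere in the nervous system NFIA and NFIB are known for switching progenitors from making neurons to making glia. POU3F1 is a POU-domain factor that recognises the octamer ATGCAAAT and related sites, and the series concerns its gene network in the retinal ganglion cells whose axons cross to the other side of the brain.

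No POU3F1 peak lay within 5 kb of an NFI start site. That is a frequent state, since only 8.92% of all 4427 gene and peak pairs had a distance within 5 kb. The bases just before a start site are printed here for the 3 members that have an entry in the RefSeq promoter table (GRCm38.p6, which is mm10), because these are the places where no peak was found. Each run is the 250 bases before the start, 5′ to 3′ on the strand of the gene, and capitals mark matches on either strand to any of 4 motifs. These are the octamer (ATGCAAAT), a shorter run within it (ATGCAA), the core that homeodomains recognise (TAAT), and the NFI part site (TTGGC). For Nfix, the farthest upstream of 4 listed starts is shown. The windows are chr4:97581693-97581942 (plus strand) for Nfia, chr10:81427174-81427423 (minus strand) for Nfic and chr8:84780083-84780332 (minus strand) for Nfix.
Nfia: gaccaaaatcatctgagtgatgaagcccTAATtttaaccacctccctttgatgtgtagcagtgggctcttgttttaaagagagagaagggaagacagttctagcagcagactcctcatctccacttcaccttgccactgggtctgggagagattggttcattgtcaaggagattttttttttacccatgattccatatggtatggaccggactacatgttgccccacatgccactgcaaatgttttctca
Nfic: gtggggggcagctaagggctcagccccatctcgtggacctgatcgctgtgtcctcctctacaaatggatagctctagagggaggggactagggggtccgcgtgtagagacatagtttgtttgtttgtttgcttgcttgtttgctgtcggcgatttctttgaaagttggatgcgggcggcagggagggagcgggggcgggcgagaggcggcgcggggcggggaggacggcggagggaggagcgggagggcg
Nfix: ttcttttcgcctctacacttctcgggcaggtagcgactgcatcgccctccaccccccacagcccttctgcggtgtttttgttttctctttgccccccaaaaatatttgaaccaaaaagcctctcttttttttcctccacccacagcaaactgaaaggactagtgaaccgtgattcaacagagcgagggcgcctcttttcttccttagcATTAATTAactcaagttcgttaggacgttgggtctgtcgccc

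The Nfia window held 1 TAAT, and the Nfic window held none of the motifs. The Nfix window held 3 matches to TAAT. None of the 3 windows, and none of the other 3 Nfix windows, held the octamer ATGCAAAT, which was in 1.60% of all 32851 promoter entries over the same 250 bases. The shorter ATGCAA was in 1 of the 4 Nfix windows and in 9.45% of all entries. TAAT was in 3 of the 4 Nfix windows and in 54.9% of all entries. TTGGC was in 2 of the 4 Nfix windows, neither of them printed here, and in 41.5% of all entries. The full NFI palindrome, with 5 bases between its part sites, was in 12 entries, none of them of an NFI gene. Matches to ATGCAAAT hold ATGCAA within them and were counted for both, and the part sites of the palindrome were counted as TTGGC too. GC content was 44.8% in the Nfia window, 63.2% in the Nfic window and 49.2% in the Nfix window, with a median of 52.4% over all entries. The nearest peak midpoint was 245 kb from this Nfia start, 1442 kb from the Nfic start and 1555 kb from the Nfix start.

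Nfia had the strongest of the NFI peaks. It lay at chr4:97280796-97281457, 662 bp long, with a fold enrichment of 33.4 at the summit over the local background, as the authors' peak caller gave it. The summit was covered by 67 fragments against a local background of 1.04, both recovered from the deposited fold and p-value. That is the lowest level of background in the list, shared within 0.01 by 790 peaks. By fold it ranked 41 among the 2652 peaks, of which 98.5% were lower, and by summit pileup 91.7% of the 2608 peaks with a recovered pileup were lower. The authors' q-value for it was 8.88e-92. For comparison, all peaks had a median fold of 6.37 and a median pileup of 19 fragments. The peak overlapped no annotated gene of any type, and no other gene of the table was placed on it.

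This Nfia peak lay far upstream by either reading of the start of the gene. The gene table gave it as 496482 bp upstream, which puts the start site used there at position 97777608, well inside the gene. The RefSeq gene body runs from 97578066 to 98118876 on chromosome 4, and its promoter entry has the start at 97581943, which is 195665 bp farther upstream. From that start the peak was 300817 bp upstream. Among all 4427 gene and peak pairs of the table, 31.5% had a distance over 300 kb, 16.4% had one over 490 kb, and the median was 160795 bp.

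2 more peaks lay inside the Nfia gene and were assigned to other genes. The first was at chr4:97827277-97827543, with a fold of 4.91 and a summit pileup of 14 fragments (q-value 2.48e-05). The second, 38475 bp farther on at chr4:97865705-97866065, had a fold of 8.54 and a pileup of 17 fragments (q-value 3.18e-12). Both are modest, with 23.3% and 73.2% of all peaks lower in fold. In the deposited table both belonged to E130114P18Rik, a long non-coding RNA gene that runs on the strand opposite to Nfia, and to Tm2d1, a protein-coding neighbour.

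The start sites used in the deposited table bear on this directly, since a gene's domain there extends only as far as the domain of the next gene. By the distances for E130114P18Rik, 49362 and 87837 bp upstream, its start lay 439.5 bp beyond that of Nfia, on the side of both peaks. Tm2d1 received them at 555896 and 517421 bp downstream. Measured from the start that the table used for Nfia, they lay 49801.5 and 88276.5 bp into the gene. The stronger of them also overlapped Gm19417, a long non-coding RNA gene within Nfia, 3124 bp downstream of its RefSeq start. Among 1258 placed peaks that lay in the body of a protein-coding gene, 74 (5.88%) were likewise not assigned to any gene whose body held them. The rule that chose the members therefore counts 1 Nfia peak, while the Nfia gene and its assigned row together hold 3.

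**Figure D1:**
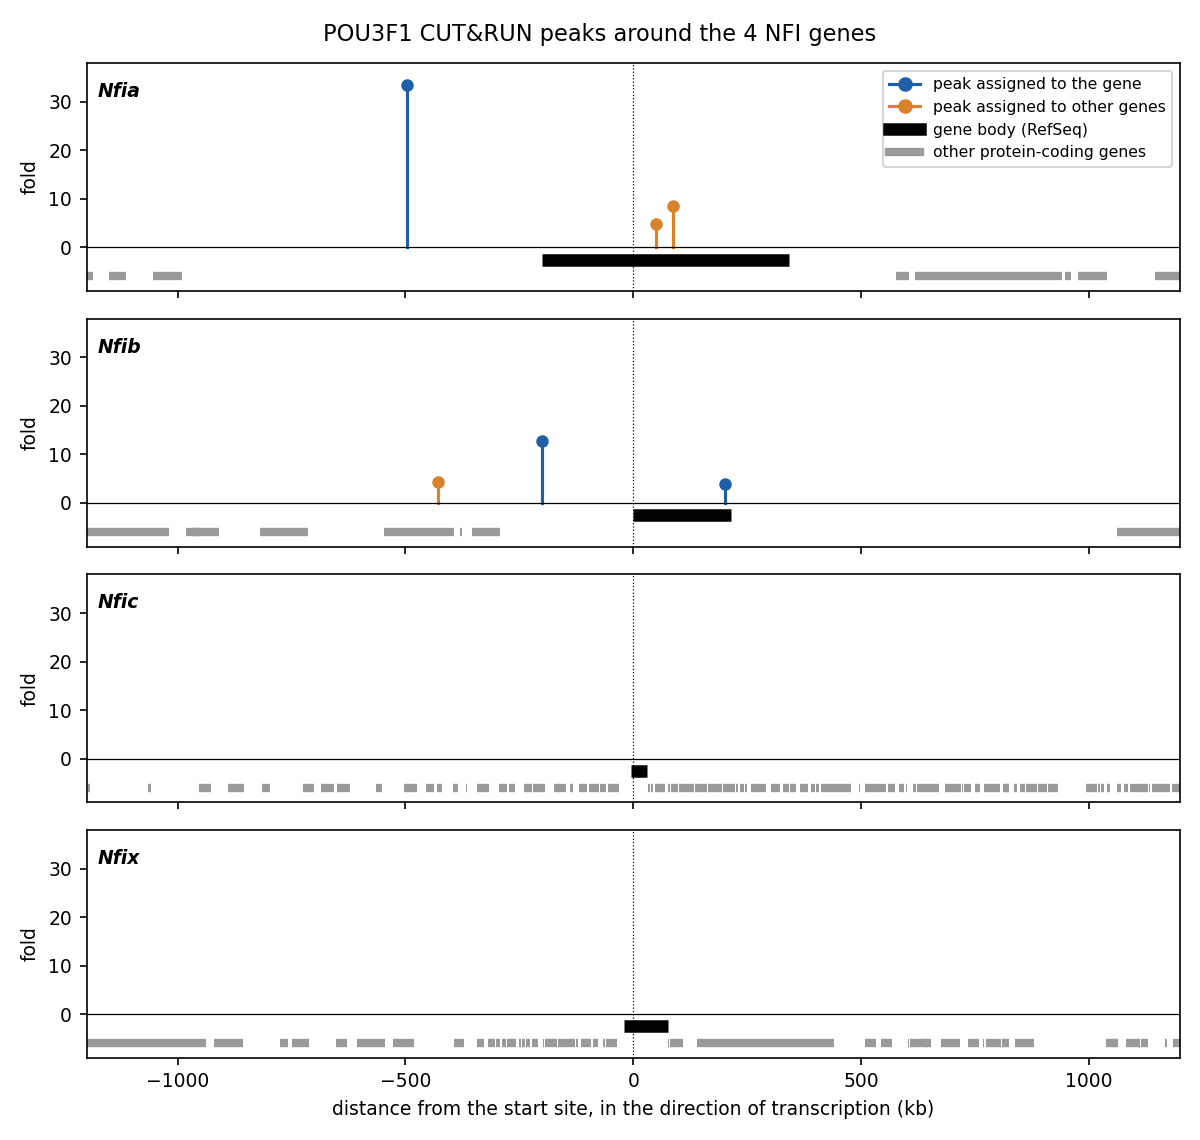
Fold enrichment at the summit (y axis) of each peak against its distance in kb from the start site (x axis, in the direction of transcription) for the 4 NFI genes. Start sites are those of the gene table for Nfia and Nfib and of the RefSeq promoter table for Nfic and Nfix, black bars are RefSeq gene bodies, grey bars other protein-coding genes, blue peaks are assigned to the member and orange peaks to other genes. The 33.4-fold peak upstream of Nfia stands highest, both peaks within Nfia are orange, and the panels of Nfic and Nfix hold no peak.

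Nfib had 2 assigned peaks, one on each side of its start and at nearly the same distance. The upstream one, at chr4:82704600-82705198, had a fold of 12.9 and a summit pileup of 30 fragments (q-value 2.4e-26), with 89.0% of all peaks lower in fold. It was given as 199591 bp upstream of Nfib and overlapped no annotated gene. The same peak was assigned to Zdhhc21, a gene for a palmitoyltransferase, whose start was nearer at 154774 bp. The downstream one, at chr4:82304678-82304921, had a fold of 3.92, which is among the lowest of the list, with 9.16% of all peaks lower. Its summit was covered by 13 fragments against a background of 2.57 (q-value 0.00186). It lay within the Nfib gene, 200509 bp from the start and 14626 bp from the far end of the gene body (82290173 to 82506751). It was also assigned to Mpdz, a multi-PDZ scaffold gene, 861992 bp away.

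Because both Nfib distances are nearly equal, they also fit the peaks the other way round, with a start 917.5 bp away on the opposite strand. The minus strand was used, on which the start falls 1443.5 bp from the end of the RefSeq gene body. On the plus strand it would fall 214217 bp into the gene. The intervals and folds are the same by either reading, and only which of them counts as upstream would change. Nfib has no entry in the promoter table.

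Nfic and Nfix had no row in the gene table and no peak in or near them. Nfic spans 81396191 to 81431919 on chromosome 10, and its nearest peaks lay 1411 kb from the gene on one side and 1674 kb on the other. The nearer one, at chr10:79984350-79985525 with a fold of 11.6, was assigned to Cnn2 and Tmem259. Nfix spans 84704712 to 84801238 on chromosome 8, with its nearest peaks 1480 kb away on one side and 3993 kb on the other. The nearer one, at chr8:83224863-83225184 with a fold of 4.90, was assigned to Tbc1d9 and Ucp1. No peak within 1000 kb of the gene body is a frequent state, found for 34.1% of protein-coding genes. Nfia and Nfib had 3 peaks each in that window, and for Nfib the third lay in Frem1 (4.25-fold). A peak list names only regions above the authors' threshold, so weaker occupancy at Nfic and Nfix was not measured here.

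**Figure D2:**
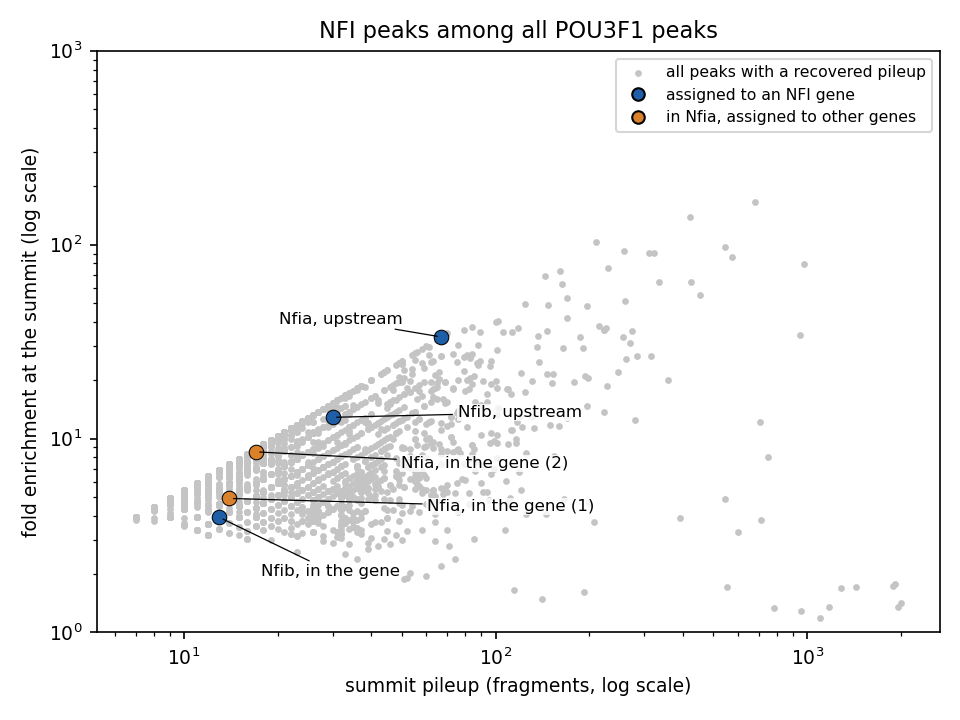
Fold enrichment at the summit (y axis, log scale) against recovered summit pileup in fragments (x axis, log scale) for 2608 peaks (grey), with the peaks assigned to an NFI gene in blue and the other peaks in the Nfia gene in orange. The upstream peak of Nfia, with 67 fragments and 33.4-fold, lies on the upper edge. That edge is set by the lowest background, which 790 peaks share within 0.01. The 3 peaks inside Nfia and Nfib rest on 13 to 17 fragments.

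The peaks inside the genes can be set beside the assigned peaks outside them. The 3 peaks within Nfia and Nfib, of which only that in Nfib was assigned to its host, had folds of 3.92, 4.91 and 8.54, and the 2 assigned peaks outside had 12.9 and 33.4. The peak in Frem1, outside Nfib and assigned to other genes, had 4.25-fold and 12 fragments, so peaks outside the genes were not all stronger. No difference was tested. Pileups were 13, 14 and 17 fragments inside against 30 and 67 for the assigned peaks outside. The local backgrounds were 2.57, 2.06 and 1.11 inside, and 1.41 and 1.04 for the assigned peaks outside. Lengths were 244, 267 and 361 bp inside, against 599 and 662 bp for the assigned peaks outside, with a median of 352 bp over all peaks.

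Counted by gene, 2 of 4 NFI genes had an assigned peak, against 10.2% of 21900 protein-coding genes. Nfib was the only member with 2 or more, which 3.85% of protein-coding genes had, and the most any member reached was 2. In the table as a whole 1441 genes had 1 peak, as Nfia did, 445 had 2, Nfib among them, and 437 had 3 or more. The genes with the same number of peaks as Nfib that come first by symbol were 1700008P02Rik, 1700129C05Rik, 4930447C04Rik, 4930546C10Rik and 4931429L15Rik, a likeness of number alone in 1 library. By gene body, 2 of 4 members held a peak, again Nfia and Nfib, against 3.69% of protein-coding genes. That share is over mostly shorter genes, with a median body of 17.1 kb. The body was shorter than that of Nfia in 99.1% of protein-coding genes, and shorter than that of Nfib in 95.9%. The part of body length was not tested.

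The members with and without peaks differ in the room around them. Locus span, the stretch from the end of the previous protein-coding gene body to the start of the next, was 1569 kb for Nfia and 1356 kb for Nfib, against 64.1 kb for Nfic and 116 kb for Nfix. The median over protein-coding genes was 77.8 kb. Within 1000 kb of the gene body lay 10 other protein-coding genes for Nfia and 7 for Nfib, but 85 for Nfic and 62 for Nfix, with a median of 29. The gene bodies measure 541, 217, 35.7 and 96.5 kb in the order Nfia, Nfib, Nfic and Nfix. In 10 equal classes of locus span, Nfia and Nfib fall in the longest, where 40.3% of genes had an assigned peak and 22.0% had 2 or more. Nfic falls in the fifth class, where 3.88% had a peak, and Nfix in the seventh, where 7.31% did. The part of locus span in the members' counts was not tested.

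**Figure D3:**
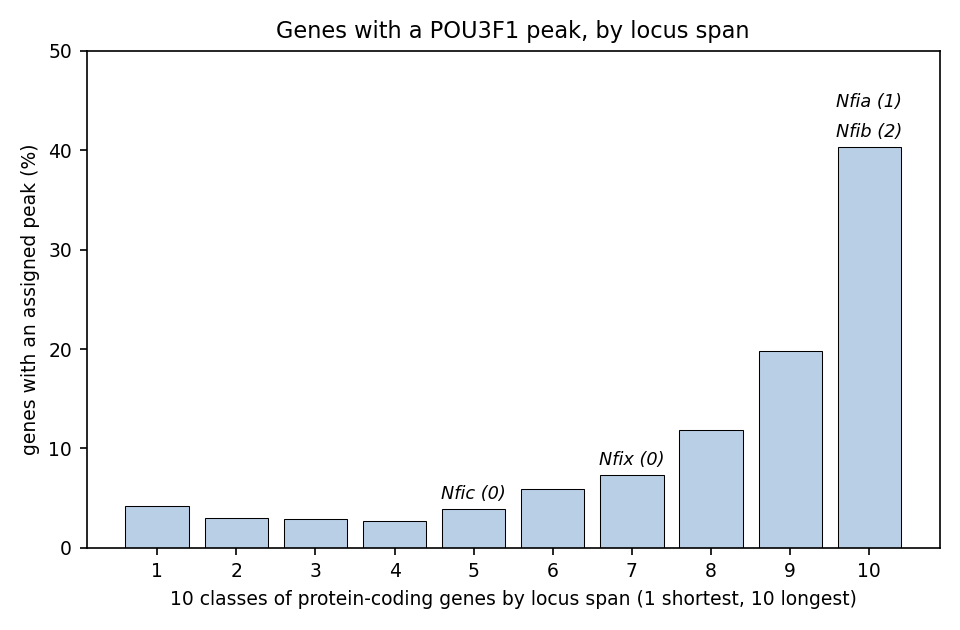
Percentage of protein-coding genes with an assigned POU3F1 peak (y axis) in 10 equal classes of locus span (x axis, 1 the shortest), with each NFI gene written over its class and its number of assigned peaks in brackets. The share is highest in the class of Nfia and Nfib, 40.3%, and is 3.88% and 7.31% in the classes of Nfic and Nfix.

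Set beside 2 other transcription factor families of 4 genes, chosen with earlier results of these data known, the NFI genes had fewer peaks. They had the highest single fold. By peaks within 1000 kb of the body, 76.5% of protein-coding genes were lower than Nfia, and 76.5% lower than Nfib. This was 99.6% for Foxp1, 99.4% for Foxp2, 95.1% for Ebf1 and Ebf2 and 96.7% for Ebf3. It was 34.1% for Ebf4, Foxp3 and Foxp4, and 0% for Nfic and Nfix. Of the early B-cell factor (Ebf) genes, which act in the differentiation of retinal neurons, 3 of 4 had a peak, with 7 for Ebf1, 2 for Ebf2, 6 for Ebf3 and none for Ebf4. Of the forkhead genes of the Foxp group, 3 of 4 had a peak, with 12 for Foxp1, 11 for Foxp2, 1 for Foxp4 and none for Foxp3. That makes 15 pairs for Ebf and 24 for Foxp against 3 for NFI. The strongest fold was 16.2 at Ebf3 and 10.5 at Foxp1, against 33.4 at Nfia. Nfia and Foxp2 have gene bodies of the same 541 kb, and these bodies held 2 and 10 peaks. Foxp1, of 597 kb, held 11, and Ebf1, of 390 kb, held 5. Locus spans were 1279 kb for Foxp1, 965 kb for Foxp2 and 1286 kb for Ebf1, all shorter than those of Nfia and Nfib. The difference between the families was not tested.

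Assigned distances were given by the table as follows. The nearest assigned peak was 199591 bp from the start for Nfib and 496482 bp for Nfia, against 17543 bp for Ebf1, 11029 bp for Ebf3, 4610 bp for Foxp1 and 51634 bp for Foxp2. For Nfia this rests on the assignment, since the peak at 49801.5 bp from the same start, inside the gene, was given to other genes. Ebf2, at 128202 bp, was the only one of the 6 Ebf and Foxp genes with a peak whose nearest assigned peak was over 100 kb away. Of all gene and peak pairs, nearest or not, 62.5% had a distance over 100 kb. In both families, as among the NFI genes, the members without a peak had shorter spans than the members with one, 106 kb for Ebf4 and 32.8 kb for Foxp3.

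**Figure D4:**
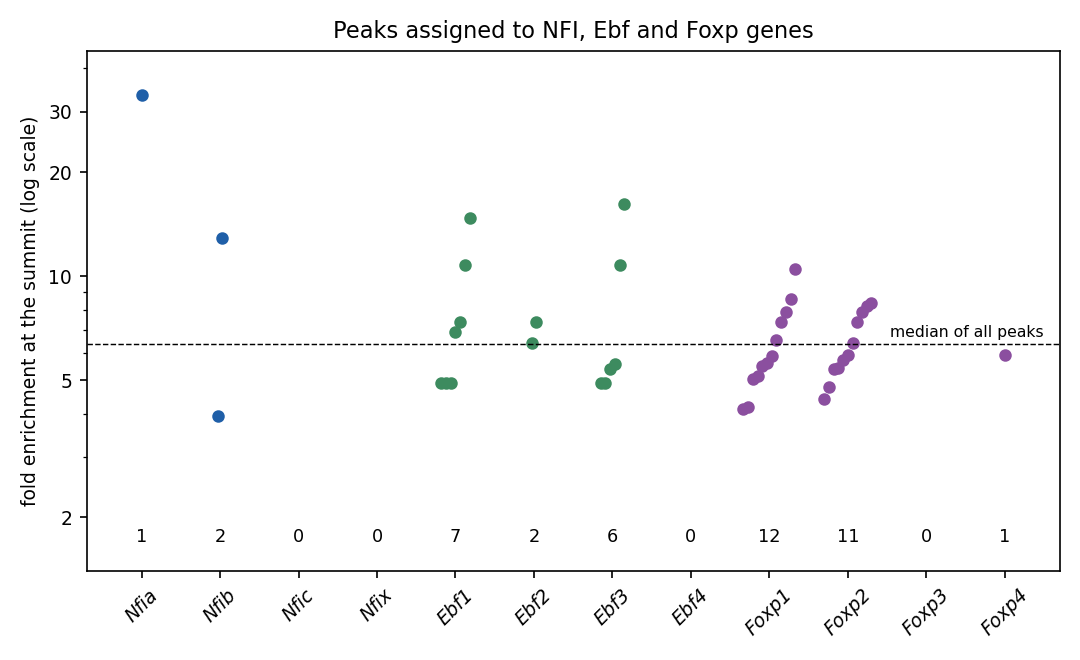
Fold enrichment at the summit (y axis, log scale) of every peak assigned to the NFI, Ebf and Foxp genes (x axis), with the number of peaks above each name and the median of all peaks, 6.37, as a dashed line. The single Nfia peak is the highest, and 4 Ebf peaks and 1 Foxp peak reach 10-fold.

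Genes that share the late progenitor and glial setting of the NFI factors were taken as a list of 24, chosen with earlier results of these data known. Of these, 14 (58.3%) had an assigned peak, with 28 pairs in all, against 10.2% of protein-coding genes, and 2 had a peak within 5 kb of the start. Sox9, a factor gene of progenitors and Müller glia, had 4 peaks, the strongest of 24.2-fold, 29111 bp downstream. Hes5, an effector of Notch signalling, had its strongest peak of 20.4-fold at 172 bp upstream. The strongest peak of Ednrb, an endothelin receptor gene, was 513020 bp upstream (19.7-fold). Slc1a3, a glutamate transporter gene of glia, had 1 peak 179343 bp downstream (10.8-fold). No assigned peak came within 100 kb of the start for 5 of the 14 genes with a peak, nor for Nfia or Nfib. Over the whole gene table, 62.5% of gene and peak pairs were over 100 kb, a share of pairs and not of genes. Both peaks inside Nfia, assigned to other genes, lay within 100 kb of the Nfia start used for the assignment. From the RefSeq start of Nfia they were 245466.5 and 283941.5 bp away.

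Bipolar cell genes, the other cell class that depends on NFI factors, formed a list of 15, chosen in the same way. A peak was assigned to 6 of them (40.0%), with 17 pairs, against 10.2% of protein-coding genes. None of these peaks reached 10-fold, and the upper quartile of fold over all peaks was 8.84. The genes of both lists fall in differing classes of locus span, whose part in these counts was not tested. Isl1, a LIM-homeodomain gene of ganglion and bipolar cells, had 9 peaks, the strongest of 9.33-fold at 907139 bp downstream. Irx6, an Iroquois homeobox gene, and Prdm8, a gene of the PRDM family, each had a strongest peak of 7.37-fold, 3209 bp upstream and 1596 bp downstream. Prkca, the kinase gene that marks rod bipolar cells, had 2 peaks (strongest 7.24-fold), as did Lhx4, a LIM-homeodomain gene of cone bipolar cells (5.89-fold).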

How the data were processed

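Alignment and peak-calling tools named in the submitters' processing notes are Bowtie2 and MACS2, beside deepTools and the build mm10, all without versions. Peaks were called once, on the POU3F1 library, so the list pools no replicates. The deposited narrow-peak list gives, for each interval, the fold over local background (a ratio) and the −log10 of the p-value and q-value at the summit. The deposited score equals 10 times the −log10 q-value without decimals in all 2652 peaks. Per the file headers, the gene table was made with GREAT 4.0.4, with basal domains reaching 5000 bp before and 1000 bp past each start, extended by at most 1000000 bp, and with curated domains.

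Each distance was placed on the peak midpoint it fits within 1 bp, given a start in or within 20 kb of the RefSeq gene (GRCm38.p6). For genes with several distances and none placed so, a single start up to 1000 kb away that fitted them all was taken. This placed 4311 of 4427 pairs (97.4%), of which 132 had more than one fit. Of the genes, 2184 matched RefSeq by symbol, 86 by synonym and 53 not at all. On distances simulated from known starts, 97.5% of 4288 were recovered. The summit pileup is the whole number that gives the deposited p-value within 0.001, with fold = (pileup + 1) / (background + 1) and a Poisson tail. The tail was taken on the values as they are or with 1 added to both, whichever came closer. A pileup was found so for 2608 peaks (98.3%). For 1990 peaks simulated with the same formula, 100% of the known pileups were returned. That checks the inversion and cannot check the formula. Library depth is unknown from the files used. Pileups are fragment counts after PCR and cover counting error only.

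Members and gene lists were chosen with earlier results of these data known. The genes named are the 4 members, genes sharing their peaks, the Ebf and Foxp genes, the 5 genes of highest fold in the other lists (1 of them is not reported here), and the 5 genes first by symbol with as many peaks as Nfib. Genes nearest to a member without peaks, or beside the NFI loci, were named after their values were seen. Overlap with a gene body needed 1 bp. Python 3.11.15, numpy 2.4.6, pandas 2.3.3, scipy 1.17.1 and matplotlib 3.10.9 were used. No test was made. Alternatives were stricter q-value and fold limits, shorter assignment distances, the nearest start alone, a 5 bp placement tolerance and, chosen after seeing the data, gene bodies. The sequences under the peaks were not analysed here.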

Additional observations from a re-analysis of the deposited data

How the results depend on the processing

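The NFI counts depended on how far from a start peaks are assigned. Within 50 kb, and within 5 kb, no NFI gene (0) and no NFI peak (0) was left. Over all gene and peak pairs, 8.92% lay within 5 kb, and the median distance was 160795 bp. Within 500 kb, or at a q-value under 0.01, both genes kept all 3 peaks. At a q-value under 0.001 both genes kept a peak and 2 NFI peaks were left, without the one inside Nfib (0.00186). Within 50 kb, 3 Ebf peaks, 1 Foxp gene with 2 peaks, 8 late progenitor and glial genes and 3 bipolar cell genes were left. Within 5 kb, these were 0 Ebf genes and peaks, 1 Foxp gene with 1 peak, 2 late progenitor and glial genes and 2 bipolar cell genes. At a fold of at least 10, both NFI genes kept a peak, beside 4 Ebf peaks, 1 Foxp gene with 1 peak, 5 late progenitor and glial genes and 0 bipolar cell genes. With the nearest start only, the strongest fold at Nfib was 3.92, since its upstream peak went to Zdhhc21. At that setting 2 NFI peaks and 15 Foxp peaks remained. With peaks in the gene body in place of assigned ones, the strongest folds were 8.54 at Nfia and 3.92 at Nfib, and 4 late progenitor and glial genes and 3 bipolar cell genes held a peak. Both kinds together gave the NFI genes 5 peaks. In all, 69 of the recomputed values stayed within 1.5 times the value reported and 27 did not. A fall from 3 NFI peaks to 2 counted as within this limit. At a q-value under 0.01, and at a 5 bp placement tolerance, no value changed, so the larger count includes settings that altered nothing. The strongest folds of Nfia and Nfib, both over 10, could not change under a fold limit of 10. No paired analysis was possible because each antibody had 1 library. The 3 peaks within Nfia and Nfib rest on few fragments, 13 to 17 at the summit.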

Other observations

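Around the Nfib locus, 6 of 11 other protein-coding genes within 2000 kb of the gene body had an assigned peak, and around Nfia 4 of 24 did, against 10.2% of all protein-coding genes. The 6 include Zdhhc21 and Mpdz, which share the Nfib peaks, and the 4 include Tm2d1, whose 2 peaks are those inside Nfia. These genes were named after their values were seen, and genes that share a peak are counted separately. The 10.2% is not matched for locus span, whose part here was not tested. Tyrp1, a melanin synthesis enzyme gene, and Lurap1l shared a peak of 11.8-fold at chr4:80864567-80864880, 30493 bp downstream of Tyrp1 and 45923 bp upstream of Lurap1l. Cer1, which encodes a secreted inhibitor of Nodal and BMP signals, and Frem1, an extracellular matrix gene, shared the peak of 4.25-fold at chr4:82933878-82934286. On the far side of Nfia, Foxd3, a forkhead factor gene of the neural crest, had 3 peaks, at 81876, 81062 and 4527 bp upstream with folds of 5.14, 6.37 and 4.91. The nearest of them rests on 9 fragments at its summit. Fggy and Hook1 shared 3 peaks, the strongest of 10.1-fold with 61 fragments at chr4:95684687-95685210. None of the peaks of Tyrp1, Lurap1l, Cer1, Frem1, Foxd3, Fggy and Hook1 reached the fold of the Nfib upstream peak, 12.9, or of the Nfia peak, 33.4.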
